A study of Caenorhabditis elegans with 48 samples.

Results

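The step between 9 h and 6 h of L1 arrest was examined across all genes in starved first-stage larvae of Caenorhabditis elegans. It rests on 8 of the 48 libraries of a starvation time series, 4 at 9 h and 4 at 6 h, and on 16987 of 44968 listed genes, those above 1 CPM, a count set relative to all counts of its library, in 4 or more libraries of the series. Both groups were cultures of the wild type N2 whose embryos were released from well-fed adults with hypochlorite and held in S-basal, a buffer without food, so the larvae hatched unfed and were never fed. Hours are counted from 12 h after the hypochlorite treatment, about when the larvae hatch, and the other time points were -2, 0, 2, 4, 12, 24, 48, 96, 192 and 288 h. The libraries of each time point carry the replicate numbers 1, 5, 6 and 8, and the comparison was made within number. The methods state that in most replicates a single culture was sampled at each time and that in 1 replicate the libraries came from different cultures; which number that was is not given in the sources used here. Whole animals were sequenced as poly(A) RNA, so fewer cells of a type and less RNA per cell cannot be told apart in any value below.

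A larva that hatches without food stops before its first postembryonic divisions and can wait for food for weeks, a state called L1 arrest. The insulin-like pathway governs it: without food its receptor DAF-2 is quiet, and the FOXO factor DAF-16 acts in the nucleus and favours survival. The larval gut is both the digestive and the main storage organ, where acid, lysosome-like compartments, digestive enzymes, antimicrobial proteins and lipid metabolism are concentrated, and the hypodermis secretes the collagens of the cuticle.

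The 8 libraries held 11134382 to 14065334 counts in genes and ribosomal RNA genes took 1.63 to 6.53% of them, with no group apart in either. Marker genes of 8 tissues and stages were compared as summed levels, and in each set the range at 9 h overlapped the range at 6 h. The gut set of 6 genes, for example, summed to 10166 to 11658 CPM at 9 h and 10293 to 12405 CPM at 6 h. Of this, asp-1 alone averaged 8836 CPM at 9 h and 9275 CPM at 6 h, so the sum says little of the rest of the set. Among its members only pho-1, a gut acid phosphatase, passed the test, with 12.5, 22.6, 20.5 and 21.7 CPM at 9 h and 35.6, 52.3, 47.1 and 47.2 CPM at 6 h in replicates 1, 5, 6 and 8. In the other sets only the pharynx marker tnt-4 passed, and it was lower at 9 h (log2 fold change -0.43, SE 0.125). The hatching protease hch-1, a sign of embryos not yet hatched, had 1.29 to 8.498 CPM at 9 h and 1.17 to 7.90 CPM at 6 h and was not past the threshold.

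Between the time points 824 genes changed, or 4.85% of those tested, at an adjusted p under 0.05 in edgeR's quasi-likelihood F test with replicate as a block. Of these, 309 (1.82% of genes tested) were higher and 515 (3.03%) were lower at 9 h, the shares to set beside list counts below. An unadjusted p under 0.05 was found in 2646 of the 16987 genes in that test, the rate to set beside such counts below. Most changes were small: the median log2 fold change was 0.46 among higher genes and -0.58 among lower genes, against 0.01 over all genes tested, and 41 and 86 genes moved by 2-fold or more. The 4 libraries of 9 h all lay beyond the 4 of 6 h for 568 of the 824 genes, a separation seen in 8.49% of all genes tested, and 807 moved the same way in 4 of 4 replicate pairs, as 27.7% of all genes did. The same 8 libraries chose the 824 genes, so these counts describe the calls and are no separate support for them. Without the replicate block 352 genes passed, 103 higher and 249 lower, all among the 824, and leaving out 1 replicate number gave 289 to 681, the lowest without replicate 8. The balance depended on the scaling, with 451 higher and 481 lower under upper-quartile factors, and 213 genes, 67 higher and 146 lower, passed with no scaling factors.

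**Figure D1:**
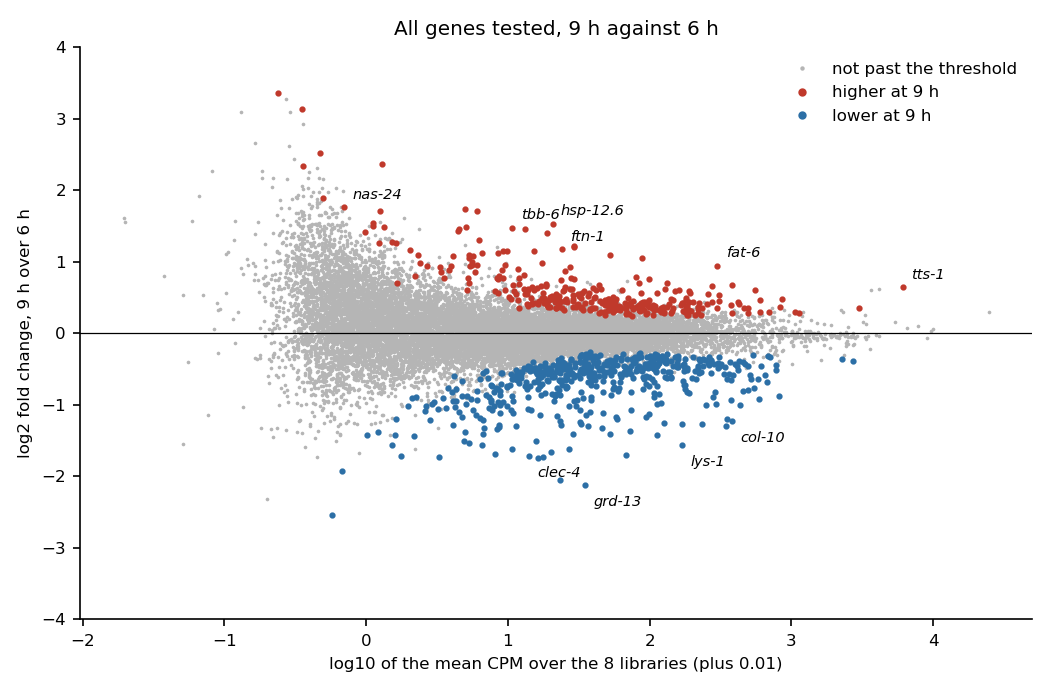
Each point is one of the 16987 genes tested, with the log10 of its mean CPM over the 8 libraries on the horizontal axis and the log2 fold change of 9 h over 6 h on the vertical axis. The 309 genes higher at 9 h (red) and the 515 lower (blue) were mostly changed by less than 2-fold, and 1 gene not past the threshold lies outside the axis.

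Genes past the threshold with a symbol, a mean of at least 10 CPM and 1 direction in 4 of 4 pairs were ranked by size. The 12 largest increases among them included hsp-12.6, ftn-1 and fat-6. hsp-12.6, a small heat shock protein known as a target of DAF-16, had 46.3, 23.9, 20.1 and 32.6 CPM at 9 h and 17.7, 8.82, 6.02 and 9.58 CPM at 6 h in replicates 1, 5, 6 and 8. The groups did not overlap, and the log2 fold change was 1.53 (SE 0.25, adjusted p = 4.80e-05 by edgeR's quasi-likelihood test). In a list of DAF-16 stress genes, of 19 tested, 2 were higher (10.5%, against 1.82% of all genes). In the same list 1 was lower (5.26%, against 3.03%) and 16 did not pass. ftn-1, a ferritin heavy chain that stores iron in the gut, had 35.3, 28.5, 26.2 and 43.8 CPM at 9 h and 17.1, 14.8, 13.2 and 13.7 CPM at 6 h. Every 9 h library was again above every 6 h library, with a log2 fold change of 1.17 (SE 0.14). The other ferritin gene, ftn-2, averaged 202 ± 19.7 CPM at 9 h and 202 ± 9.32 CPM at 6 h (SD, n = 4 each), a log2 difference of -0.01 (SE 0.12).

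fat-6, a stearoyl-CoA desaturase that makes oleic acid, was the most abundant of the 12 largest increases, with 318, 345, 515 and 400 CPM at 9 h and 165, 225, 263 and 168 CPM at 6 h. Its groups did not overlap and its log2 fold change was 0.94 (SE 0.13). The palmitoyl-CoA desaturase fat-5 went the other way, with 3.35, 2.76, 8.24 and 1.06 CPM at 9 h and 5.63, 5.93, 13.1 and 5.42 CPM at 6 h. Its groups overlapped through replicate 6, the highest library at both times, and the log2 fold change of -1.07 (SE 0.29) was past the threshold with the replicate block (adjusted p = 0.0206) but not without it. The fatty acid elongases were lower where they passed, elo-6 at 12.1 ± 2.31 against 20.7 ± 3.23 CPM and elo-3 at 22.9 ± 6.66 against 33.5 ± 5.93 CPM at 9 h and 6 h (SD, n = 4 each). Of the 20 desaturases and elongases tested, 1 was higher (5%, against 1.82% of all genes) and 3 were lower (15%, against 3.03%).

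The other large increases were of diverse function and mostly modest level. dao-6, of a gene class named for overexpression in dauer larvae or aging adults, had 16.4 to 25.6 CPM at 9 h and 8.33 to 10.5 CPM at 6 h. The cytochrome P450 gene cyp-32B1 had 90.8 to 112 CPM at 9 h and 47.3 to 69.9 CPM at 6 h, and the acid phosphatase pho-6 had 14.3 to 18.1 and 8.19 to 10.996 CPM. For these 3 genes the groups were apart. fbxa-162, annotated as a pseudogene of the F-box family, the arrestin-domain gene arrd-11 and dach-1 also had groups that did not overlap. Their log2 fold changes were 0.98, 0.90 and 0.76.

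In tbb-6, abu-10 and cpr-2 the groups overlapped although all 4 pairs rose. The beta tubulin tbb-6 had 26.2, 6.37, 19.2 and 11.8 CPM at 9 h and 9.59, 2.42, 6.15 and 4.33 CPM at 6 h. The replicates ranged widely at either time, and the increase showed within each number (log2 fold change 1.47, SE 0.28). abu-10, which encodes a glutamine- and asparagine-rich protein of a family tied to the unfolded protein response, had 75.5 CPM in replicate 6 at 9 h and 20.3 to 25.5 CPM in the other 9 h libraries, against 11.2 to 25.3 CPM at 6 h. Without the replicate block tbb-6, abu-10, dach-1 and cpr-2 were not past the threshold, and abu-10 also missed it in DESeq2 and with any replicate left out.

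**Figure D2:**
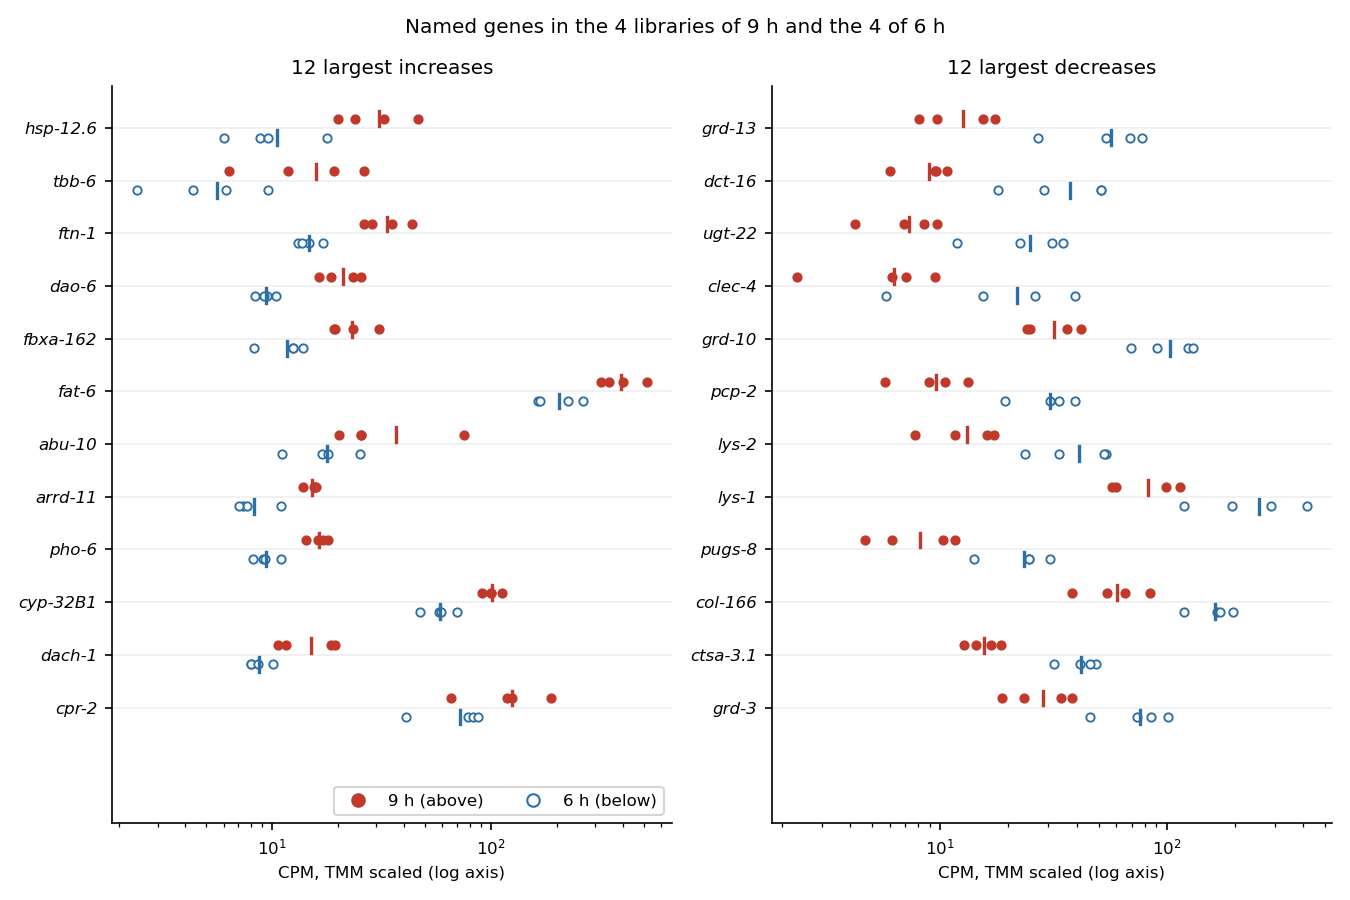
Points are the CPM values (log axis) of the 4 libraries at 9 h (filled, above) and the 4 at 6 h (open, below) for the 12 largest increases and the 12 largest decreases, and short bars are group means. The groups are apart in 9 of the 12 increases and in 11 of the 12 decreases, with clec-4 the exception among the decreases.

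Among the 24 genes ranked by size, the decreases were larger, with log2 fold changes of -2.13 to -1.41, against 0.75 to 1.53 for the increases. Over all genes past the threshold, with those of low level or without a symbol, the extremes were -2.55 and 3.35. grd-13, one of the groundhog genes related to hedgehog, had 9.67, 15.5, 17.5 and 8.06 CPM at 9 h and 27.1, 68.6, 78.2 and 54.1 CPM at 6 h, and its log2 fold change was -2.13 (SE 0.23, adjusted p = 3.79e-08 by edgeR's quasi-likelihood test). grd-10, grd-3 and grd-5 fell with it, by 1.70, 1.41 and 1.24 on the log2 scale, and their groups did not overlap either. In C. elegans these genes encode secreted proteins of epithelia and no true hedgehog gene exists. They were 4 of 16 grd genes tested, of which 10 had a positive value (median log2 fold change 0.29), and the list of hedgehog-related and patched genes as a whole had 4 lower and 0 higher of 78 (5.13%, against 3.03% of all genes) and a median log2 fold change of 0.03. At an unadjusted p under 0.05 there were 8 lower and 1 higher of the 78, beside 2646 of all 16987 genes tested. DESeq2 called 5 lower. All 4 passed without the replicate block and with no scaling factors as well.

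dct-16, named as a gene controlled by DAF-16 that affects germline tumours, had 6.00, 10.7, 9.47 and 9.58 CPM at 9 h and 18.005, 51.1, 51.4 and 28.8 CPM at 6 h. No 9 h library reached the lowest 6 h library, replicate 1, and the log2 fold change was -2.05 (SE 0.23). ugt-22, a UDP-glucuronosyl transferase, averaged 7.31 ± 2.35 CPM at 9 h and 25.05 ± 10.2 CPM at 6 h (SD, n = 4 each). pcp-2 and ctsa-3.1, which encode peptidases of the prolyl carboxypeptidase and cathepsin A kinds, fell by 1.66 and 1.42 on the log2 scale, and pugs-8 by 1.51.

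Replicate 1 was lower than its peers among the falling genes at both times. Of the 515 lower genes, 388 had their lowest 6 h library in replicate 1 and 299 had their lowest 9 h library there. The median log2 step of these genes was -0.52, -0.58, -0.63 and -0.59 in replicates 1, 5, 6 and 8, where a like step in each number helped to choose them. In the 309 higher genes the medians were 0.40, 0.38, 0.49 and 0.62, and replicate 8 held the highest 9 h library in 182. Across genes with a mean of at least 10 CPM, called or not, the log2 steps of 2 replicate numbers correlated at 0.33 (replicates 1 and 8) to 0.68 (replicates 5 and 6), a description over genes, which are not independent.

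Among antimicrobial genes, 3 lysozymes were lower. The lysozyme gene lys-1 had 57.5, 99.8, 115 and 59.4 CPM at 9 h and 119.2, 289, 414 and 195 CPM at 6 h, so that the groups came close only through replicate 6 at 9 h and replicate 1 at 6 h (log2 fold change -1.57, SE 0.22). lys-2 and lys-4 fell by 1.62 and 1.15 on the log2 scale, and no other lys gene of the 9 tested passed. Over the 48 lysozymes and antimicrobial proteins tested, 8 (16.7%) were lower, 4 (8.33%) were higher and 36 did not pass, with 25 negative values, 23 positive ones and a median of -0.01. Those higher included spp-8, a saposin-like protein, at 689 ± 99.5 CPM at 9 h and 501 ± 85.2 CPM at 6 h (SD, n = 4 each). With no block 4 were lower and 1 higher.

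C-type lectins, a large family of secreted carbohydrate-binding proteins many of which respond to bacteria, had 14 lower (8.70%) and 1 higher of 161 tested, and 146 did not pass. clec-67 had 22.9, 46.7, 43.7 and 28.8 CPM at 9 h and 52.3, 99.4, 101 and 74.5 CPM at 6 h, with no overlap (log2 fold change -1.20, SE 0.18). clec-4 had 2.34, 9.52, 7.08 and 6.16 CPM at 9 h and 5.76, 26.2, 39.5 and 15.4 CPM at 6 h. Its groups overlapped through replicate 1, where each value was the lowest of its time point. The median of the lectins was -0.08, and 7 were lower and 1 higher without the replicate block.

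Gut cysteine proteases of the cathepsin B type split. cpr-1 had 47.8, 84.9, 94.5 and 67.4 CPM at 9 h and 98.7, 217, 221 and 173 CPM at 6 h, with every 9 h library below every 6 h library (log2 fold change -1.26, SE 0.24). cpr-4, cpr-5 and cpr-9 fell by 0.99, 0.84 and 0.66 on the log2 scale, whereas cpr-2 (log2 fold change 0.75) and cpr-6 (0.35) were higher. These were 6 of the 8 cpr genes tested. The higher calls were the less stable: 0 were higher without the replicate block or without replicate 8, where 4 and 3 were lower. None of the 14 aspartyl proteases (asp genes) passed in edgeR's quasi-likelihood test on 48 libraries or in DESeq2, 4 of them had an unadjusted p under 0.05, and the fit on the 8 libraries with the block called 1 higher and 3 lower.

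**Figure D3:**
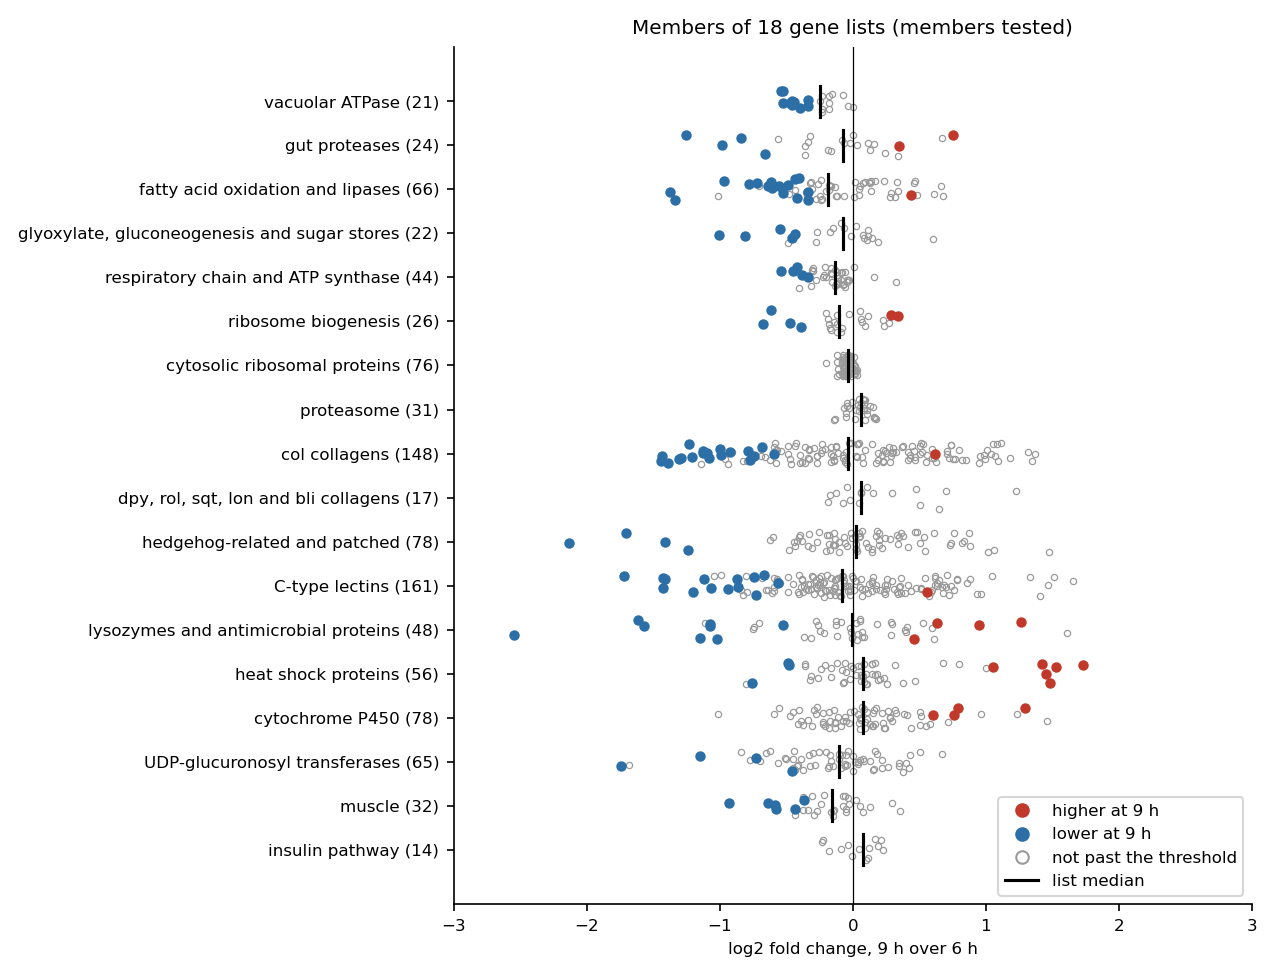
Each point is a member of one of 18 gene lists, placed by its log2 fold change of 9 h over 6 h, with the number of members tested in parentheses, list medians as bars and a small random vertical spread. The points of the vacuolar ATPase list run from -0.54 to 0.00, those of the cytosolic ribosomal proteins from -0.20 to 0.03.

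The vacuolar ATPase, the proton pump that acidifies lysosomes and the gut lumen, had the largest share of changed members among the 39 lists, with 10 of 21 tested lower (47.6%) and 0 higher. vha-13, the catalytic A subunit, had 607, 696, 651 and 600 CPM at 9 h and 760, 1026, 982 and 907 CPM at 6 h. The groups were apart, and the log2 fold change was -0.52 (SE 0.09, adjusted p = 0.000140 by edgeR's quasi-likelihood test). vha-12, the B subunit, fell by the same 0.52, and the other called subunits of the peripheral domain, vha-8, vha-10, vha-11 and vha-14, fell by 0.34 to 0.47. In the membrane domain vha-4, vha-5 and vha-7 and the accessory subunit vha-19 fell by 0.34 to 0.54. The gut a subunit vha-6 (log2 fold change -0.04, SE 0.13) and the neuronal one unc-32 (0.00, SE 0.09) did not pass. The list median was -0.25, and 8 subunits were lower with no replicate block and 2 with no scaling factors.

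Of 66 genes for fatty acid oxidation, lipid binding and lipases, 16 were lower (24.2%), 1 was higher and 49 did not pass, with 41 negative values, 25 positive ones and a median log2 fold change of -0.19. lbp-6, a fatty acid-binding protein, had 27.5, 47.1, 47.7 and 39.0 CPM at 9 h and 76.0, 118, 138 and 87.3 CPM at 6 h, with no overlap (log2 fold change -1.37, SE 0.19). The enzymes named by rank were cpt-1, a carnitine palmitoyltransferase that admits fatty acids to mitochondria (217 ± 28.6 against 320 ± 44.4 CPM at 9 h and 6 h, SD, n = 4 each), the enoyl-CoA hydratase ech-4 and the lysosomal lipase lipl-1. lipl-1 had 5.54, 7.35, 2.72 and 3.65 CPM at 9 h and 13.5, 15.1, 8.71 and 10.8 CPM at 6 h, and its log2 fold change of -1.34 (SE 0.28) was not past the threshold with no replicate block. Among the others were 4 more of the 10 ech genes tested and the thiolases daf-22 and kat-1. The higher gene was another lysosomal lipase, lipl-5, with 93.7 to 122.3 CPM at 9 h and 67.4 to 94.6 CPM at 6 h. Of the 8 lipl genes tested 7 had a positive value, at a median of 0.33, and at an unadjusted p under 0.05 there were 3 higher and 1 lower. The fit with no replicate block had 10 of the 66 lower and 0 higher.

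The glyoxylate, gluconeogenesis and sugar storage list, the route by which stored lipid becomes sugar, had 5 lower and 0 higher of 22 (22.7%), with a median of -0.08. The malate dehydrogenase mdh-2 had 125, 196, 201 and 139 CPM at 9 h and 233, 385, 401 and 311 CPM at 6 h, and no library of one group reached the other (log2 fold change -1.01, SE 0.12). fbp-1, the gluconeogenic fructose bisphosphatase, had 37.4, 49.4, 42.4 and 43.3 CPM at 9 h and 57.5, 93.1, 83.8 and 68.8 CPM at 6 h, and fell by 0.81 on the log2 scale (SE 0.11). mdh-1, the lactate dehydrogenase ldh-1 and pck-1, a phosphoenolpyruvate carboxykinase, fell by 0.43 to 0.55. The glyoxylate enzyme icl-1 had a log2 fold change of -0.49 (SE 0.18) and was not past the threshold (adjusted p = 0.136 by edgeR's quasi-likelihood test). Only 3 of the 22 were lower with no replicate block.

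In the respiratory chain 5 of 44 genes were lower and 0 higher (11.4%), and 4 of the 5 encode succinate dehydrogenase, which links the citric acid cycle to the chain. Its flavoprotein gene sdha-1 had 137, 163, 142 and 134 CPM at 9 h and 161, 218, 210 and 199 CPM at 6 h. The groups overlapped by 1 library each, with every pair lower at 9 h, and the log2 fold change was -0.45 (SE 0.10). sdhd-1, mev-1 and sdhb-1 fell by 0.54, 0.42 and 0.33. The second flavoprotein gene sdha-2, of lower level at 7.48 ± 1.81 CPM at 9 h and 7.33 ± 0.843 CPM at 6 h, had a log2 difference of 0.02 (SE 0.20). The remaining lower gene was ucr-2.2, of the cytochrome bc1 complex. With no block 2 of the 5 passed, and with no scaling factors 0 of the 44, where DESeq2 called 9.

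In ribosome production, fib-1, nol-56 and nol-58 encode the core proteins of the nucleolar particle that methylates ribosomal RNA. fib-1, the methyltransferase fibrillarin, had 128, 156, 124 and 118 CPM at 9 h and 191, 234, 216 and 197 CPM at 6 h, with no overlap (log2 fold change -0.68, SE 0.12). nol-56 and nol-58 fell by 0.62 and 0.47, and the nucleolin gene nucl-1 by 0.39. Of the 26 ribosome biogenesis genes 2 were higher, rrp-8 (0.34) and lpd-7 (0.29), and 4 were lower (15.4%). Without the replicate block, with no scaling factors, and without replicate 1 or replicate 8, 0 were higher and 2 to 4 lower. Of the ribosome itself, 0 of 76 cytosolic ribosomal proteins passed in edgeR or DESeq2, as did 0 of 31 proteasome subunits, and in either list 0 had an unadjusted p under 0.05. Their medians were -0.04 and 0.06. The difference between these lists was not tested.

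Cuticle genes fell in part. Of 148 col collagens tested, 19 were lower (12.8%, against 3.03% of all genes) and 1 was higher, col-153, at a list median of -0.03. col-10 had 153, 277, 247 and 227 CPM at 9 h and 354, 642, 565 and 568 CPM at 6 h, with the groups apart (log2 fold change -1.23, SE 0.17). col-166, col-144 and col-94 fell by 1.43, 1.31 and 1.10. Close copies in this family may share reads, since reads with up to 2 locations were kept. None of the 17 dpy, rol, sqt, lon and bli collagens, which shape the body, and none of 53 molting and apical matrix genes passed in edgeR's quasi-likelihood test on 48 libraries or in DESeq2, and 0 and 3 of them had an unadjusted p under 0.05. The fit on the 8 libraries with the block called 1 higher and 2 lower of the 53. The peroxidase mlt-7, which crosslinks collagen, fell by 0.55 (SE 0.09), and 14 col genes were lower without the replicate block.

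Actins and thin-filament genes made up the changes in the muscle list. There 6 of 32 were lower (18.8%, against 3.03% of all genes) and 0 higher, at a median of -0.16. The most changed of them, act-5, is the actin of gut microvilli and not of muscle: it had 236, 287, 298 and 213 CPM at 9 h and 378, 561, 576 and 466 CPM at 6 h, with no overlap (log2 fold change -0.93, SE 0.15). act-3 fell by 0.64, the tropomyosin gene lev-11 by 0.37 and the troponin I gene unc-27 by 0.58, with the troponin T genes tnt-2 and tnt-4 at -0.58 and -0.43. Actin genes are near identical and their reads may be split between copies. With no block 2 of the 6 passed.

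Of 56 heat shock genes tested, 6 were higher (10.7%, against 1.82% of all genes) and 3 lower (5.36%, against 3.03%). Small heat shock proteins were in both sets. Besides hsp-12.6 the higher ones were 5 of the 8 genes of the inducible hsp-16 family, small chaperones with near-identical copies and low counts. hsp-16.11 had 13.3, 2.03, 4.61 and 10.6 CPM at 9 h and 4.99, 0.780, 1.51 and 1.67 CPM at 6 h. Each pair was higher at 9 h, but the groups overlapped, since replicate 1 at 6 h was above replicates 5 and 6 at 9 h, and the log2 fold change was 1.73 (SE 0.36). Without the replicate block 1 of the 5 passed, and without replicate 8 none did. The lower genes were the mitochondrial chaperonin hsp-60 (log2 fold change -0.75, SE 0.12), hsp-25 (-0.48) and hsp-12.2 (-0.49).

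Among detoxification genes, 4 of 78 cytochrome P450 genes were higher (5.13%, against 1.82% of all genes) and 0 lower. After cyp-32B1 these were cyp-35B1, at 9.51, 6.24, 13.9 and 5.62 CPM at 9 h and 3.24, 3.04, 6.28 and 1.92 CPM at 6 h, cyp-34A9 and cyp-42A1, and only cyp-32B1 passed without the replicate block. Glutathione S-transferases had 2 higher (4.44%) and 4 lower (8.89%) of 45, with gsto-3 at 39.7 ± 2.09 against 26.9 ± 0.684 CPM and gst-26 at 12.0 ± 1.18 against 22.3 ± 5.69 CPM at 9 h and 6 h (SD, n = 4 each). UDP-glucuronosyl transferases had 4 lower of 65 (6.15%, against 3.03% of all genes) and 0 higher.

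Among known regulators of arrest, the transcription factor daf-16 averaged 330 ± 21.1 CPM at 9 h and 294 ± 27.6 CPM at 6 h, and the insulin receptor daf-2 averaged 424 ± 35.7 and 374 ± 50.4 CPM (SD, n = 4 each). Neither passed (log2 fold changes 0.17 and 0.19). None of the 14 insulin pathway genes or of the 20 genes of AMPK and TOR signalling passed in edgeR's quasi-likelihood test. Of the first, 4 had an unadjusted p under 0.05 and DESeq2 called 1, and of the second, 2 and 0. Of 25 insulin-like peptides 1 was higher (4%, against 1.82% of all genes) and 0 lower. This gene, ins-29, was at 4.95 ± 0.847 against 2.67 ± 0.466 CPM at 9 h and 6 h. It was not past the threshold without the replicate block. In all, 11 of the 39 lists, with 365 genes tested, had no call in edgeR's quasi-likelihood test on 48 libraries. There 26 genes had an unadjusted p under 0.05, beside 2646 of all 16987 genes tested. In these lists DESeq2 called 2 higher and 4 lower, the likelihood ratio test 1 higher and the fit on the 8 libraries with the block 6 higher and 10 lower.

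In several other groups few members passed. Of the nuclear hormone receptors 2 of 241 were higher (0.83%) and 4 lower (1.66%), below the shares of all genes (1.82% and 3.03%), led by nhr-68 at 23.8 ± 3.40 CPM at 9 h and 42.2 ± 7.68 CPM at 6 h and nhr-18 at 67.5 ± 6.55 and 48.6 ± 1.90 CPM (SD, n = 4 each). Of the 81 neuropeptide-like genes 4 were lower (4.94%, against 3.03% of all genes), 2 without the replicate block. The 4 were nlp-24 and nlp-33, at -1.27 and -0.94 on the log2 scale, nlp-36, and cnc-8, an antimicrobial caenacin that the list also holds. DNA replication genes had 3 lower of 38 (7.89%, against 3.03% of all genes) and 0 higher. In this list 1 was lower without the replicate block, and 0 with no scaling factors or without replicate 8. The gene rnr-1, a subunit of the enzyme that makes deoxynucleotides, fell by 0.49, and the helicase subunits mcm-3 and mcm-6 by 0.47 and 0.34. The linker histone hil-1 was higher, with 333, 313, 299 and 415 CPM at 9 h and 240, 213, 188 and 211 CPM at 6 h. So was the autophagy gene atg-16.2, at 96.6 ± 13.4 against 73.7 ± 10.7 CPM. The histone list had 1 higher of 18 tested (5.56%, against 1.82% of all genes) and 0 lower. The autophagy list had 1 higher of 29 (3.45%), 0 lower and a median log2 fold change of 0.04.

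The same genes were then read in libraries of other time points, which were not part of the contrast that chose them. These had entered the same fit, with its dispersions, replicate terms and filter, and most replicates were a single culture sampled at all times. The window from 4 h to 12 h also holds the step itself, so agreement there is no separate support for the calls. At 12 h against 4 h, 306 of the 309 higher genes had a positive log2 fold change, as did 49.3% of all genes tested. A negative one was found in 515 of the 515 lower genes and in 50.7% of all genes. In that direction 294 (95.1%) and 509 (98.8%) passed, against 16.5% and 16.1% of all genes tested (32.6% in either direction). None passed in the opposite direction. The median change was 1.06 and -1.17 on the log2 scale. Taken from the other side, the 2805 genes higher and 2741 genes lower at 12 h against 4 h had the same sign at 9 h against 6 h in 94.3% and 94.0%. Their median log2 step was 0.19 and -0.27, against 0.01 over all genes. In that direction 10.5% and 18.6% passed, against 1.82% and 3.03% of all genes.

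Outside that window the direction was less uniform. At 4 h against 2 h, 270 of the 309 and 380 of the 515 genes had the same sign, and 59 and 62 passed in that direction, against 1.34% and 1.92% of all genes (3.26% in either direction). At 24 h against 12 h, 251 and 423 had the same sign, where over all genes 52.1% of values were positive and 47.9% negative. In that direction 168 and 215 passed, against 6.43% and 8.12% of all genes (14.6% in either direction), and 22 and 11 passed the opposite way.

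**Figure D4:**
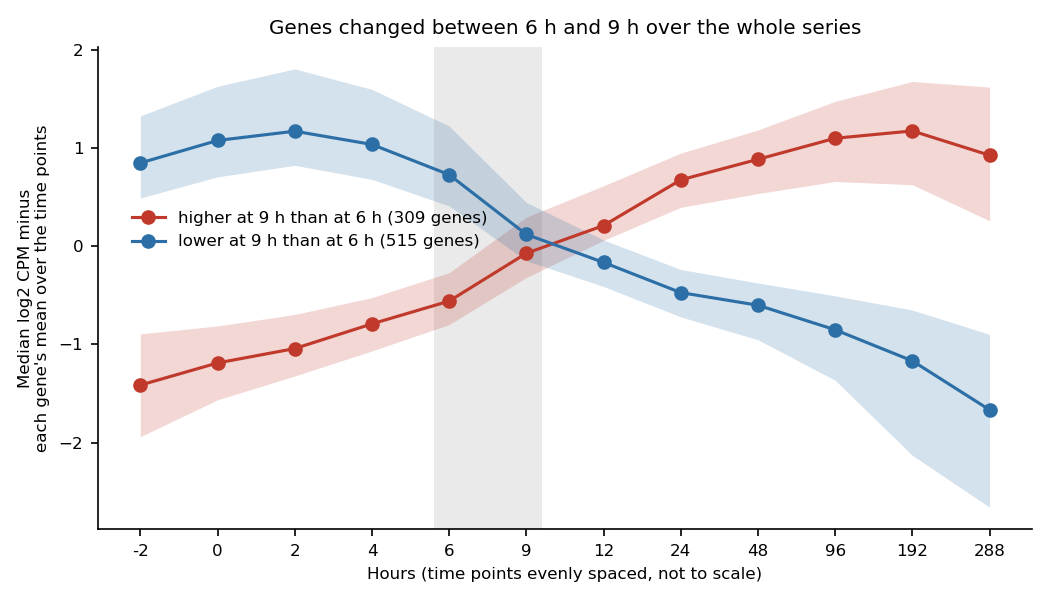
Lines are the medians, and bands the quartiles, of log2 CPM minus each gene's mean over the time points, for the 309 genes higher and the 515 genes lower at 9 h than at 6 h (shaded), whose values at 6 h and 9 h chose them. The median of the lower genes is highest at 2 h (1.17) and lowest at 288 h (-1.67). That of the higher genes runs from -1.42 at -2 h to 1.17 at 192 h. The first time point lies before hatching, and most larvae were no longer alive at the last.

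Over the series as a whole the 6 h and 9 h values, which chose the genes, lay on a longer course. Of the 309 higher genes 201 were lowest at -2 h and 123 were highest at 192 h. Of the 515 lower genes 224 were highest at 2 h and 350 lowest at 288 h. The first time point lies before hatching. The paper reports that most larvae were no longer alive at the last time point. Whether the values at 288 h reflect living larvae was not tested. hsp-12.6 averaged 2.65, 10.5, 30.7, 85.8 and 270 CPM at 2, 6, 9, 12 and 96 h and 50.6 CPM at 288 h. ftn-1 was at 12.4, 14.7, 33.4 and 54.04 CPM at 2, 6, 9 and 12 h, and fat-6 reached 5506 ± 713 CPM at 192 h (SD, n = 4). lys-1 averaged 458, 254, 82.8 and 40.3 CPM at 2, 6, 9 and 12 h, and 3.52 CPM at 288 h. The plots of 9 genes over time show that the decreases peaked at 0 or 2 h.

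Whether the step at 9 h was steeper or flatter than the next one was tested as 2 times the 9 h level minus those of 6 h and 12 h. In this test of a turn 0 genes passed in edgeR's quasi-likelihood test, with a smallest adjusted p of 0.776, and 599 genes (3.53%) had an unadjusted p under 0.05. DESeq2 also called 0, and the likelihood ratio test called 1. The fit on the 16 libraries of 4 to 12 h called 8, and the fit with no filter on low counts called 20.

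**Figure D5:**
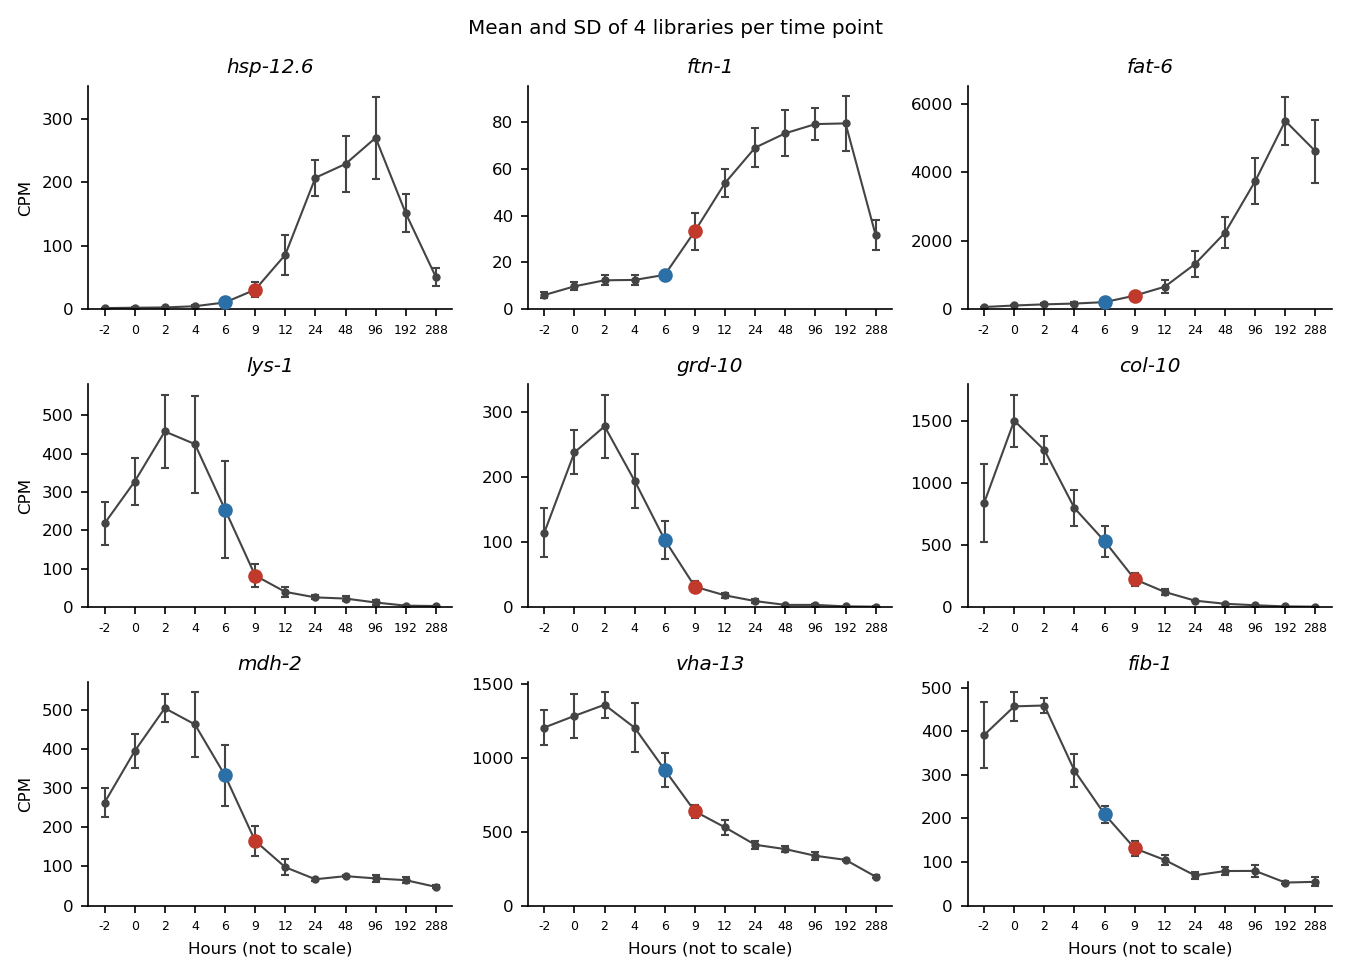
Points are the mean CPM of 4 libraries at each of the 12 time points, with SD as bars, 6 h in blue and 9 h in red, for 9 genes with linear axes that start at 0. hsp-12.6, ftn-1 and fat-6 were higher at 9 h than at 6 h, and lys-1, grd-10, col-10, mdh-2, vha-13 and fib-1 were lower.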

How the data were processed

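Poly(A) RNA of whole N2 larvae was sequenced at 12 time points with replicates 1, 5, 6 and 8. The deposited values are raw counts per gene: the authors mapped single-end reads with bowtie to the WS210 genome release, keeping reads with up to 2 locations, and counted them with HTSeq, with no molecular identifiers. Tool versions and the strand setting are not given in the sources used here, so close paralogs and overlapping or antisense genes may share reads. Summary entries, 23.4 to 26.9% of the reads in these libraries, were left out. Gene names came from RefSeq for 16678 of the 16987 genes tested and from Ensembl for 21, and 288 had none. Promoter motifs were planned but not analysed here.

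Genes above 1 CPM in at least 4 libraries were tested in edgeR 4.0.16 (R 4.3.3) with TMM factors and the quasi-likelihood F test, fitted on all 48 libraries with time point and replicate number as terms, and Benjamini-Hochberg adjustment over all genes tested, 2-sided, threshold 0.05. Standard errors were taken from each log2 fold change and its F value. CPM values were TMM scaled. By the methods, libraries of a number shared a culture in most replicates. The p-values rest on the spread estimated over all 48 libraries, not over those of 6 h and 9 h alone. Values per replicate show counting and sampling error together.

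Named genes have a symbol, an adjusted p under 0.05, a mean of at least 10 CPM and 1 direction in 4 of 4 pairs, and are the 12 largest increases and 12 largest decreases of 460 candidates, plus up to 4 members a list with the smallest p. ftn-2, sdha-2, daf-16, daf-2 and list members beyond those ranks were named after their values were seen. The gene set, lists and comparisons were chosen with earlier results of these data known. Alternatives were no replicate block, fewer libraries, other scaling, DESeq2 1.42.0, the likelihood ratio test, other filters and leaving out replicates.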

Additional observations from a re-analysis of the deposited data

Results flagged for a closer look

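In 196 groups of 4 libraries, those of the 98 named genes at 9 h and at 6 h, the most extreme library was set against the range of its group, and in 9 groups its gap to the nearest library exceeded Dixon's critical value for 4 samples. Chance flags about 1 in 20 groups. Replicate 6 at 9 h stood high for abu-10 (75.5 CPM, the others 20.3 to 25.5) and for cnc-8, an antimicrobial caenacin (7.66 CPM, the others 3.95 to 4.20), and low for arrd-11 (13.8 CPM, the others 15.6 to 15.8). Replicate 5 at 9 h stood high for the glucuronosyl transferase ugt-9 (8.73 CPM, the others 4.44 to 5.09). At 6 h, replicate 5 stood high for arrd-11 (11.0025 CPM, the others 7.08 to 7.66) and replicate 6 stood high for fat-5 (13.1 CPM, the others 5.42 to 5.93) and low for mcm-6 (39.8 CPM, the others 41.9 to 42.3). Replicate 1 at 6 h stood low for cpr-4 (130.1 CPM, the others 154 to 157) and for mlt-7 (133 CPM, the others 174 to 182).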

How the results depend on the processing

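Against 824 genes (309 higher, 515 lower, 37.5% higher), the fit with no replicate block gave 352 (103 and 249, 29.3% higher), and with the 8 libraries of 6 h and 9 h alone, an alternative chosen after seeing the data, 339 (59 and 280, 17.4%). With the replicate block, those 8 libraries gave 1727 (576 and 1151, 33.4%) and the 16 libraries of 4 to 12 h gave 1773 (612 and 1161), with 8 turns at 9 h. No scaling factors gave 213 (67 and 146, 31.5%), and upper-quartile factors 48.4% higher. DESeq2 gave 468 higher (41.7%), and a minimum mean of 10 CPM also 468 higher (43.9%). No filter gave 31.7% higher and 20 turns, and the likelihood ratio test 1 turn. Leaving out 1 replicate number gave 289 to 681 genes (71 to 250 higher and 218 to 431 lower, 24.6 to 42.1% higher). The share that moved the same way at 12 h against 4 h was 99.6%, and 98.6% with 16 libraries, 98.3% in the likelihood ratio test, 98.9% with no filter, 100.0% with no scaling and 99.6 to 100.0% with a replicate left out. Fits on 8 libraries give no turn or 12 h value.

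Deviations of 9 h and 6 h libraries with the same number correlated at 0.354, 0.384, 0.439 and 0.0737 in replicates 1, 5, 6 and 8 across genes, and the 9 h library of replicate 8 matched replicate 5 best (0.0798), so the numbers pair 3 of 4. Of 98 named genes 51 kept the call in each alternative and 0 reversed. The call was lost by 31 without the replicate block, 39 with no scaling and 31 without replicate 8. Low counts, as in the hsp-16 genes, limit single values.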

Other observations

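Some genes outside the named set, chosen after their values were seen, add to the picture. tts-1, an abundant noncoding RNA bound to ribosomes and known from dauer larvae and long-lived daf-2 mutants, had 6732, 7139, 7014 and 9117 CPM at 9 h and 5066, 5191, 4341 and 4500 CPM at 6 h in replicates 1, 5, 6 and 8. The groups were apart (log2 fold change 0.64, SE 0.15, adjusted p = 0.00464 by edgeR's quasi-likelihood test). odr-10, the receptor for the food odour diacetyl, had 33.4, 29.5, 26.2 and 35.3 CPM at 9 h and 21.05, 21.5, 17.5 and 19.0 CPM at 6 h, also with no overlap (log2 fold change 0.65, SE 0.17).

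F44E5.4 and F44E5.5, near-identical copies of an inducible Hsp70 gene whose reads cannot be told apart with certainty, were higher at 9 h. F44E5.4 had 67.6, 13.5, 33.6 and 49.2 CPM at 9 h and 34.003, 7.02, 16.95 and 12.8 CPM at 6 h. Each pair was higher at 9 h and the groups overlapped, with log2 fold changes of 1.22 (SE 0.30) and 1.21 (SE 0.31). The gene hsp-70, of lower level at 4.10 ± 1.52 CPM at 9 h and 3.06 ± 2.55 CPM at 6 h, did not pass (log2 fold change 0.47, SE 0.35). The metallothionein mtl-1 averaged 136 ± 24.8 CPM at 9 h and 124 ± 4.47 CPM at 6 h (SD, n = 4 each) and was not past the threshold. Nor were mtl-2 (log2 fold change 0.06, SE 0.25) and sod-3 (0.28, SE 0.28).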
